A study of Mus musculus with 16 samples.

Results

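Mouse J1 embryonic stem (ES) cells in which Tgif1 had been knocked down were compared with cells that received a control hairpin. The comparison rests on 4 arrays, 2 labelled Tgif1 KD and 2 labelled shControl, out of 16 in the series. All of its members were probe sets with exactly 1 gene symbol, 20380 of 22690, which stand for 12393 genes. The other 12 arrays, 4 each of BirA control, Tgif1 OE and Tgif2 OE, belong to an overexpression experiment. They enter here through the shared estimate of the spread, and the BirA control arrays also as a further reference for levels. Both groups of the knockdown were J1 cells grown on gelatin in medium with serum and leukemia inhibitory factor (LIF), and the labels name no overexpressed gene in either. The labels give neither the number of hairpins nor the time after their delivery, and they do not say whether a group was 1 clone, a pool or separate cultures. The p-values therefore reflect no more than the spread among these arrays, and that spread may be technical. With 2 arrays against 2, an exact permutation test of a single gene cannot go below 0.333, so tests come from a fit across all genes.

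Tgif1 encodes a homeodomain protein of the TALE class, named for an extra loop of amino acids in the homeodomain. It represses transcription, either by binding DNA itself or as a partner of Smad proteins that carry TGF-beta and Nodal signals, and it recruits corepressors such as CtBP, Sin3 and histone deacetylases. Tgif2 is its closest relative. ES cells kept in LIF and serum renew themselves while a small share of them moves between naive, primed and early embryo-like states, so bulk RNA is an average over cells. A lower level of a transcript in such RNA can mean fewer cells of a type or less RNA per cell, and these cannot be told apart here.

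All values are log2 intensities from robust multi-array averaging (RMA), and a change is the Tgif1 KD mean minus the shControl mean on that scale, followed by ± its standard error. A gene was called where limma's moderated test gave a Benjamini-Hochberg adjusted p under 0.05 over all 12393 genes. By this rule 3146 genes (25.4%) were called, 1552 higher (12.5%) and 1594 lower (12.9%), and the median change of all genes was -0.045. Without shControl replicate 2 the count was 2012, with 959 lower; without Tgif1 KD replicate 1 there were 1030 higher, and without Tgif1 KD replicate 2 there were 1023 lower. The 2 Tgif1 KD arrays lay both above or both below the 2 shControl arrays for 8570 genes (69.2%). At least 2-fold changes were less evenly split, with 268 genes higher (2.16%) and 127 lower (1.02%). The genes that rose at least 2-fold had a median shControl level of 6.62, and those that fell at least 2-fold one of 7.98.

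**Figure D1:**
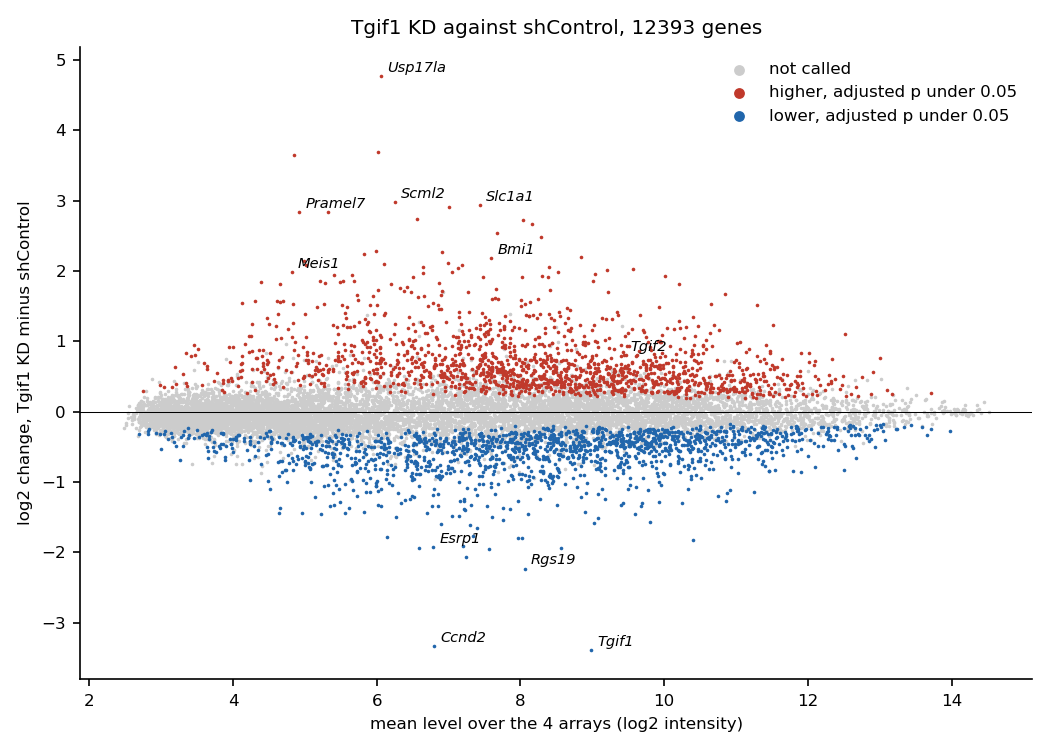
Change between the Tgif1 KD and shControl means (vertical, log2) against the mean level over the 4 arrays (horizontal, log2 intensity), 1 point per gene, coloured where limma's adjusted p was under 0.05. Usp17la lies highest at 4.78, and Tgif1 and Ccnd2 lie lowest at -3.39 and -3.34.

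The replicate arrays lay close together. The SD over genes of the difference between the Tgif1 KD arrays was 0.161, and between the shControl arrays 0.157, against 0.423 to 0.439 for the 4 pairs of a Tgif1 KD with a shControl array. Only 2 genes differed at least 2-fold between the Tgif1 KD arrays and 1 between the shControl arrays, against 419 to 441 across the groups. ES cell markers were high on all 4 arrays, with Dppa5a at 14.39 and 14.40 against 14.30 and 14.31 and Pou5f1 at 13.40 and 13.38 against 13.21 and 13.23 (Tgif1 KD against shControl arrays). Of 8 ES cell markers measured, Tdgf1 rose and 0 fell. Fibroblast markers, which would come from feeder cells, gave Col1a1 at 4.49 and 4.45 against 4.17 and 4.44, Dcn at 4.60 and 4.48 against 4.53 and 4.29 and Lum at 3.03 and 2.77 against 3.02 and 3.04, and of 16 measured Vim and Pdgfra rose (0.70 and 0.60) and Thy1 fell (-1.33). Blood markers such as Ptprc (3.14 and 3.06 against 2.95 and 3.12) were near the lower end of the scale, as was Cdh5 of the endothelial list (4.27 and 4.44 against 4.32 and 4.69), though of 8 blood markers Gata1 fell (-0.49) and of 6 endothelial markers Pecam1, which ES cells also express, rose (1.01). The difference between 5′ and 3′ control probe sets, a measure of RNA integrity and labelling, moved with the groups. For Gapdh it was -0.096 and -0.08 on the Tgif1 KD arrays and -0.209 and -0.221 on the shControl arrays, and for Actb -0.518 and -0.493 against -0.614 and -0.673. On both controls the Tgif1 KD arrays lay within the range of the 4 BirA control arrays (-0.13 to -0.039 for Gapdh and -0.569 to -0.464 for Actb) and the shControl arrays below it. The part of this difference in the results was not tested. Not called on fewer arrays were Gata1 without shControl replicate 2 (0.0583), the highest adjusted p in brackets. Opposite in sign was another probe set of Pdgfra (-0.07). The called share was 12.5% of ES cell, 18.8% of fibroblast, 12.5% of blood and 16.7% of endothelial markers, beside 25.4% of all genes.

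The Tgif1 level was 7.46 and 7.12 on the Tgif1 KD arrays and 10.71 and 10.66 on the shControl arrays. The groups were far apart, and the shControl arrays sat at the level of the 4 BirA control arrays (10.65 to 10.74). The change of -3.39 ± 0.10 left 9.51% of the shControl level (adjusted p = 3.88e-11, limma), and 1 probe set measured the gene. Tgif2 was measured at 9.85 and 9.84 on the Tgif1 KD arrays and 8.98 and 9.10 on the shControl arrays, a rise of 0.81 ± 0.09 (adjusted p = 1.60e-05) with both Tgif1 KD arrays above both shControl arrays. Its level on BirA control arrays was 9.17 to 9.35.

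Other TALE homeobox genes moved too. Of 16 measured, 6 rose and 2 fell, which include Tgif2 and Tgif1 themselves, with a median of -0.02 beside -0.045 for all genes. The called share was 50.0%, beside 25.4% of all genes. Meis1 and Meis2 encode cofactors of Hox and Pbx proteins. Meis1 was at 6.06 and 5.55 on the Tgif1 KD arrays and 3.82 and 3.83 on the shControl arrays (1.98 ± 0.18), and Meis2 rose by 1.72 ± 0.25, at 7.10 and 7.37 against 5.53 and 5.49 (here and below, Tgif1 KD against shControl arrays). Meis1 was close to the lower end of the scale in shControl cells and above it on both Tgif1 KD arrays. Of their Pbx partners, Pbx3 rose (0.88 ± 0.09) and Pbx2 fell (-0.56 ± 0.11, 8.46 and 8.41 against 8.99 and 9.0). Pbx2 on the Tgif1 KD arrays was near the BirA control range of 8.28 to 8.44. Irx2 also rose (0.94). Of 31 Hox genes measured 9.68% were called, beside 25.4% of all genes: 1 rose (1, 2, 1 and 1 with 1 array left out), Hoxd8 (0.74), and 2 fell (0, 1, 2 and 0 with 1 array left out), Hoxc4 (-0.82) and Hoxa4 (-0.31). The counts in brackets, here and below, are those without Tgif1 KD replicate 1, Tgif1 KD replicate 2, shControl replicate 1 and shControl replicate 2, in that order. They are printed only where they differed most from the count with all arrays. A count without brackets may also have been lower with 1 array left out. This was so, among others, for the rises of TALE, G1, p53, ATF4 response, glycolysis, imprinted, Polycomb, core and naive and solute carrier genes. It was also so for the falls of G1, mitotic, sterol and fatty acid, epithelial to mesenchymal, actomyosin, retinoic acid, neural and germline genes. Calls that did not hold with 1 array fewer were those of Hoxa4 without any 1 of the 4 arrays (0.292) and Hoxc4 without Tgif1 KD replicate 1 or shControl replicate 2 (0.165), the highest adjusted p in brackets.

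Among the proteins known to act with Tgif1, most corepressor and Smad genes were not called. Ctbp1 (10.34 and 10.34 against 10.46 and 10.38), Ctbp2 (12.58 and 12.65 against 12.61 and 12.57) and Hdac1 (10.96 and 10.90 against 11.32 and 11.24) stayed short of the threshold, as did Smad2 (9.20 and 9.19 against 9.04 and 9.01) and Smad4 (10.69 and 10.64 against 10.96 and 10.85). Of 15 partners 0 rose and 3 fell (1, 1, 1 and 1 with 1 array left out), with a median of -0.13. Their called share was 20.0%, beside 25.4% of all genes. Rcor1, the scaffold of the CoREST complex, fell by the most (-1.09 ± 0.11, 7.82 and 7.88 against 8.97 and 8.91), and its Tgif1 KD arrays lay clear of the shControl arrays. The scaffold gene Sin3a and the histone-binding protein gene Rbbp4 changed by -0.51 ± 0.16 and -0.26 ± 0.08. The threshold was missed by Rbbp4 without any 1 of the 4 arrays (0.163) and Sin3a without any 1 of the 4 arrays (0.135), the highest adjusted p in brackets.

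The 3 largest rises were of genes near the lower end of the scale in shControl cells. Usp17la, of a family of deubiquitinases active in the early embryo, was at 8.52 and 8.38 on the Tgif1 KD arrays and 3.80 and 3.55 on the shControl arrays, a change of 4.78 ± 0.15 (adjusted p = 5.81e-11). Zfp352, a zinc finger gene of the 2-cell embryo, was at 6.98 and 6.50 on the Tgif1 KD arrays and 3.95 and 3.87 on the shControl arrays (2.83 ± 0.15), and its other probe set gave 2.95. Both genes lay at the lower end of the scale on shControl and BirA control arrays alike (3.69 to 4.21 and 3.86 to 4.23 on the latter), and well above it on both Tgif1 KD arrays. AF067061 (8.04 and 7.70 against 4.19 and 4.15) and Gm20767 (7.0 and 6.33 against 2.96 and 3.08), whose functions are not well described, did the same. Pramel7 and Pramel6 are cytoplasmic leucine-rich repeat genes of preimplantation embryos and ES cells. Pramel7 was at 6.44 and 6.24 on the Tgif1 KD arrays and 3.62 and 3.38 on the shControl arrays (2.84 ± 0.13), while its other probe set gave 0.42, and Pramel6 rose by 1.58 ± 0.16 (5.72 and 5.25 against 3.79 and 4.02). Members of the Usp17, Pramel and related families are close copies of one another, so these signals need not come from 1 gene each.

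Of 7 genes of the 2-cell stage with a probe set, out of 18 listed, 4 rose and 0 fell, with a median of 0.69. Besides Usp17la and Zfp352 these were Sp110 (1.86 ± 0.17, 6.92 and 6.31 against 4.93 and 4.59), whose other probe sets gave -0.04 and -0.01, and Tcstv3 (0.69 ± 0.10, 3.99 and 3.89 against 3.12 and 3.38). The called share was 57.1%, beside 25.4% of all genes. The list was drawn up with the rises of its leading members known.

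Other large rises were of transporters, enzymes and chromatin genes. Slc1a1, a glutamate and cysteine transporter, was at 8.91 and 8.89 on the Tgif1 KD arrays and 6.08 and 5.84 on the shControl arrays (2.94 ± 0.29, adjusted p = 3.97e-06). Plet1, a surface protein of placental progenitors, was at 9.40 and 9.38 on the Tgif1 KD arrays and 6.64 and 6.71 on the shControl arrays (2.72 ± 0.46), though another of its probe sets gave 0.20. In both, the Tgif1 KD arrays agreed closely and stood more than 2 log2 units above every shControl and BirA control array. Scml2, a Polycomb-associated protein, was at 7.66 and 7.83 on the Tgif1 KD arrays and 4.96 and 4.57 on the shControl arrays (2.98 ± 0.17). Zhx1, a zinc finger and homeobox repressor, rose from a shControl level of 5.21 and 5.16 to 7.96 and 7.89 (2.74 ± 0.16). H1f2, a linker histone gene, rose by 2.49 ± 0.15 (9.67 and 9.39 against 7.06 and 7.02), while its other probe sets ran from -0.43 to 2.64. Lcorl (2.28), Eea1, an early endosome tether (2.26), Ssbp2 (2.12), the Ras exchange factor gene Sos2 (2.10), the arginase gene Arg2 (2.08) and the tissue factor gene F3 (2.08) also rose by over 2 log2 units. The other probe sets of Ssbp2 and Arg2 gave 0.28 and 1.22. The prostaglandin synthase gene Ptgs2 changed by 2.15 ± 0.34 and the prohormone-processing gene Cpe by 2.20 ± 0.29, and another probe set of each gave 0.03 and -0.09.

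**Figure D2:**
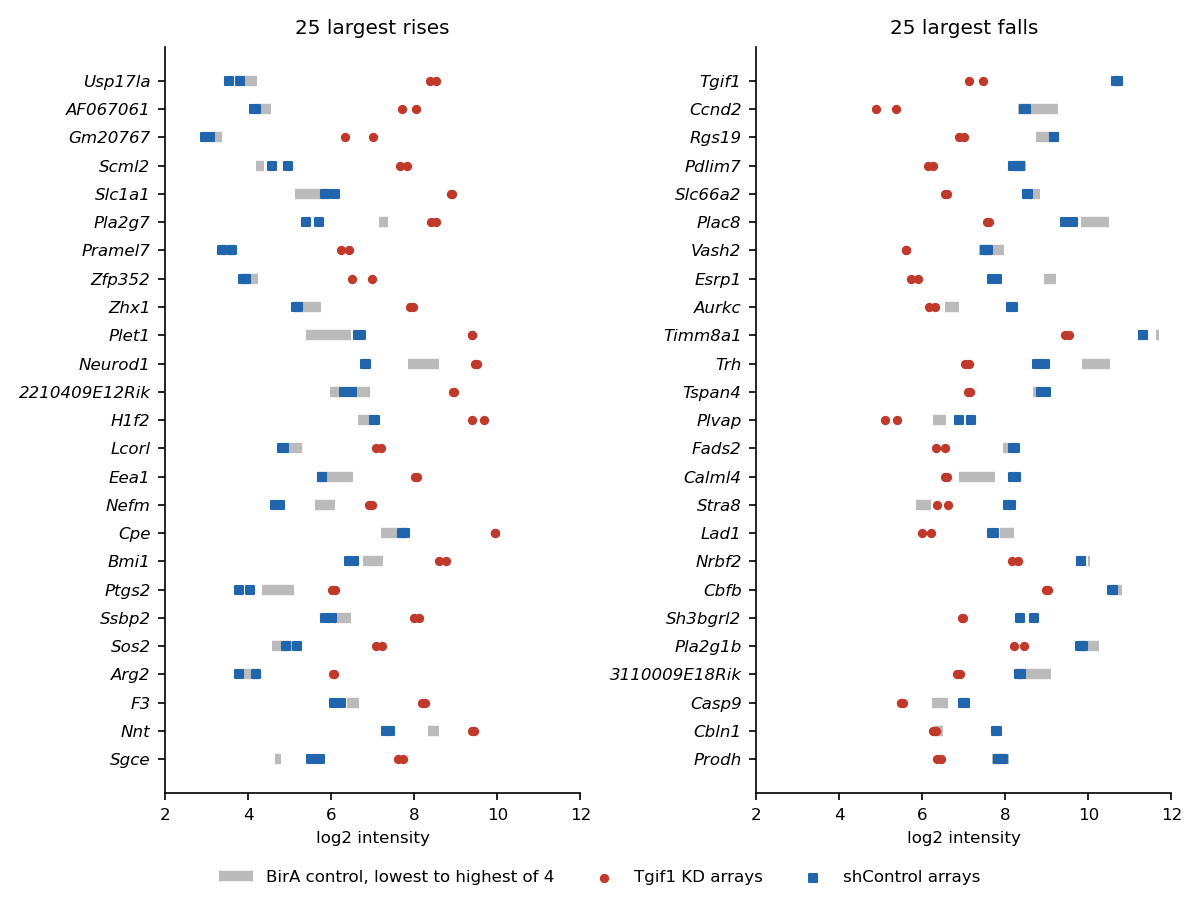
Level (log2 intensity) on each Tgif1 KD array (red circles) and each shControl array (blue squares) of the 25 top rises and 25 top falls among called genes with separate groups, ordered by the size of the change. Grey bars run from the lowest to the highest of the 4 BirA control arrays. For a number of genes they lie apart from the shControl arrays, among them Pla2g7, Neurod1, Nefm, Nnt, Esrp1, Trh, Aurkc, Stra8 and Cbln1.

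Tgif proteins are known to bind the core TGACAG in naked DNA. Promoter sequences are shown for Usp17la, the largest rise, and for those of the 25 largest rises whose window held this core. RefSeq windows from 250 bases before to 50 bases after the annotated start were available for 9882 of the genes, on build GRCm38.p6. TGACAG was searched on both strands, the reverse strand reading CTGTCA, and no other motif was searched. In the list below the matches are in capitals and all else in lower case, 5′ to 3′ on the strand of the gene.
Usp17la (chr7:104856766-104857065, plus strand): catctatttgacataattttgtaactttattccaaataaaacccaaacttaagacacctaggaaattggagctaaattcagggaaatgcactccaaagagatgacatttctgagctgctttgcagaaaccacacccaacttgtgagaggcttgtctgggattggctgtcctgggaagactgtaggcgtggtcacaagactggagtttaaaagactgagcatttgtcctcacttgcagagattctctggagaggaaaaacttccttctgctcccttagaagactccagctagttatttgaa
Slc1a1 (chr19:28834885-28835184, plus strand): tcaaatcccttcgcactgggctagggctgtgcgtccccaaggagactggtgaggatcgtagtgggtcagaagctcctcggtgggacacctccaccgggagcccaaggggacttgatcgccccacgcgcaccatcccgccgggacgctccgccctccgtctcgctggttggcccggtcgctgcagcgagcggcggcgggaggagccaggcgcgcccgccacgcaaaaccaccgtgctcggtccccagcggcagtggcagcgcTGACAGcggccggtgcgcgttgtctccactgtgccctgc
Pramel7 (chr2:87492369-87492668, minus strand): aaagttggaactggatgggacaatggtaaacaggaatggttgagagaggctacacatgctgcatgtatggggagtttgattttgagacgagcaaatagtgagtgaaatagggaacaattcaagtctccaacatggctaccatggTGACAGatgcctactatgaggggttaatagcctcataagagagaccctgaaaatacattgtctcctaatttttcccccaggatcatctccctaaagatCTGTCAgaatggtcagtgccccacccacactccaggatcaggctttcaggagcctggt
Plet1 (chr9:50494275-50494574, plus strand): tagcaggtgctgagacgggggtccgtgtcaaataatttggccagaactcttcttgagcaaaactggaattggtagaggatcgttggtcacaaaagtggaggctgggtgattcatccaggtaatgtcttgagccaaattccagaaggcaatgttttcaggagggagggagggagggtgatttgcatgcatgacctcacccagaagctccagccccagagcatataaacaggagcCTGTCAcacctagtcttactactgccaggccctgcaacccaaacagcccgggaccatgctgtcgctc
Eea1 (chr10:95940413-95940712, plus strand): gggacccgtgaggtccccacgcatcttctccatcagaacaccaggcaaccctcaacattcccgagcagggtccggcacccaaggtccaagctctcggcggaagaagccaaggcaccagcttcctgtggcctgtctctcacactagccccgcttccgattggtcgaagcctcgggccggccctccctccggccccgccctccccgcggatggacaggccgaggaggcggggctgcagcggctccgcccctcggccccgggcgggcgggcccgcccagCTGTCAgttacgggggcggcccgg
Ssbp2 (chr13:91460847-91461146, plus strand): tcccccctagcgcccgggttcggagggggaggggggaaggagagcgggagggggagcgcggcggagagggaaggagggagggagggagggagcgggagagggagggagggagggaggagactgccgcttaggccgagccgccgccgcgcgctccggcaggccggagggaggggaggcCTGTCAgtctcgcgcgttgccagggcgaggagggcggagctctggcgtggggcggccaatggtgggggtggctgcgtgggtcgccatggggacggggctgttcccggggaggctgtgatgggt
Of the 25 largest rises 17 had a window and 5 held the 6 letters, which are the last 5 sequences. Pramel7 held them at 2 places, and the window of Usp17la, the largest rise, did not hold them.

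Over all genes with a window 17.4% held TGACAG. The share was 20.6% among genes called higher, 13.8% among genes called lower and 17.5% among genes not called. Among genes changed at least 2-fold, 50 of 213 that rose held it (23.5%) and 7 of 86 that fell (8.14%). The median GC content of the windows was 60.7% for these rises, 61.3% for these falls and 59.3% for all genes. Taking any window of a gene with several starts gave 28.2%, 10.5% and 20.4%. A match to 6 letters is a description of sequence and not a binding site, and the difference between the shares was not tested.

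Besides Tgif1, the largest fall was of Ccnd2, a D-type cyclin that drives entry into the cell cycle. Ccnd2 was at 4.88 and 5.38 on the Tgif1 KD arrays and 8.49 and 8.44 on the shControl arrays, a change of -3.34 ± 0.23 (adjusted p = 1.37e-07). The shControl level lay within the BirA control range of 8.31 to 9.26, and its other probe sets gave -3.39 to -1.32. Rgs19, which shortens G protein signals, was at 7.0 and 6.89 on the Tgif1 KD arrays and 9.17 and 9.18 on the shControl arrays (-2.23 ± 0.10). Timm8a1, a chaperone of mitochondrial import, was at 9.54 and 9.44 on the Tgif1 KD arrays and 11.31 and 11.31 on the shControl arrays (-1.82 ± 0.07, adjusted p = 2.04e-10), while its close relative Timm8a2 rose, at 7.36 and 7.42 against 5.71 and 5.81 (1.63 ± 0.24). Ccnd2, Rgs19 and Timm8a1 showed a high level in shControl cells and a clear gap between groups.

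Other large falls were of genes of varied function. Pdlim7, a cytoskeletal adaptor, changed by -2.06 ± 0.12 (6.27 and 6.14 against 8.35 and 8.19), but another of its probe sets gave 0.20. Lad1, an anchoring-filament protein, changed by -1.60 ± 0.14, Vash2, an angiogenesis factor, by -1.94 ± 0.16, Tspan4, a tetraspanin, by -1.79 ± 0.08 and Slc66a2 by -1.95 ± 0.11. Plac8 fell by more than 1 log2 unit (7.62 and 7.56 against 9.43 and 9.63) and so did the thyrotropin-releasing hormone gene Trh (7.02 and 7.12 against 8.76 and 8.96). For Plac8 and Trh the shControl arrays were themselves below the BirA control arrays (9.82 to 10.51 and 9.84 to 10.53). The autophagy adaptor Nrbf2 (-1.59 ± 0.07), Cbfb, the partner of Runx factors (-1.57 ± 0.19), and the proline oxidase gene Prodh (-1.48 ± 0.12) fell from levels like those of BirA control arrays. Casp9, the initiator caspase gene, changed by -1.49 ± 0.14, and its other probe set by -0.14.

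Regulators of the cell cycle moved both ways. Among 27 regulators of G1, 9 rose and 6 fell, with a median of 0.16 and a called share of 55.6%, beside 25.4% of all genes. The 3 D-type cyclins parted, with Ccnd1 at 9.0 and 9.15 against 10.14 and 10.14 (-1.06 ± 0.14) and Ccnd3 at 11.70 and 11.68 against 10.92 and 10.87 (0.79 ± 0.17). The retinoblastoma gene Rb1, which holds cells in G1, rose by 1.25 ± 0.16 (8.29 and 8.38 against 7.09 and 7.06), and its relative Rbl1 by 0.59 ± 0.09. Inhibitors of cyclin-dependent kinases were among the rises, with Cdkn2c at 0.70 ± 0.15, Cdkn1a at 0.59 ± 0.12, Cdkn2d at 0.53 ± 0.06 and Cdkn2a at 0.51 ± 0.14. For cyclin E, Ccne2 rose (0.74) and Ccne1 fell (-0.51). With 1 array left out, calls were lost for Cdkn2a without Tgif1 KD replicate 1 or shControl replicate 2 (0.134), the highest adjusted p in brackets.

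Among genes of DNA replication more members fell than rose. Of 44 measured, 2 rose and 15 fell (11, 8, 8 and 9 with 1 array left out), and the median was -0.16 beside -0.045. Dut, which keeps uracil out of DNA, was at 11.02 and 10.96 on the Tgif1 KD arrays and 11.74 and 11.74 on the shControl arrays (-0.75 ± 0.08). The origin licensing genes Cdc6 (9.77 and 9.78 against 10.44 and 10.30, -0.60 ± 0.09) and Mcm2 (10.61 and 10.42 against 11.11 and 11.08, -0.58 ± 0.08) and the thymidine kinase gene Tk1 (-0.52 ± 0.11) fell as well. The polymerase alpha subunit gene Pola2 fell on its brightest probe set (-0.69 ± 0.09), and another gave 0.15. Of 42 mitotic genes 4 rose (2, 3, 2 and 1 with 1 array left out) and 7 fell, with Kif20a at -0.71 ± 0.08, Kif23 at -0.76 ± 0.09 and the securin gene Pttg1 at -0.82 ± 0.08 among the falls and Kif4 at 0.55 ± 0.09 among the rises. The called share was 38.6% of DNA replication genes and 26.2% of mitotic genes, beside 25.4% of all genes. Mycn rose (0.53 ± 0.07) and Myc fell (-1.07 ± 0.11, 8.31 and 8.18 against 9.26 and 9.37), and the Myc antagonist Mxd3 rose (0.72 ± 0.11). A further probe set had the other sign for Mycn (-0.20).

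Several targets of p53, a sensor of DNA damage and other stress, rose. Of 21 measured, 8 rose and 2 fell (1, 1, 1 and 1 with 1 array left out), with a median of 0.34. Pmaip1, which encodes the proapoptotic protein Noxa, was at 10.06 and 9.97 on the Tgif1 KD arrays and 8.01 and 8.11 on the shControl arrays (1.96 ± 0.23). Its groups were nearly 2 log2 units apart and the BirA control arrays, at 7.44 to 7.98, lay below shControl. Ccng1 (1.23 ± 0.19), Ei24 (0.90 ± 0.14) and Phlda3 (0.64 ± 0.15) rose, and Rrm2b, a p53-induced subunit of ribonucleotide reductase, fell (-0.56 ± 0.10). The called share was 47.6% of the p53 list and 17.6% of the Bcl2 family, beside 25.4% of all genes. Pmaip1 was the single rise among 17 genes of the Bcl2 family, of which 2 fell (2, 1, 1 and 1 with 1 array left out), among them Bok (-0.93 ± 0.07).

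Genes that help proteins fold in the endoplasmic reticulum (ER) were called in 1 direction. Of 28 measured, 13 rose (9, 7, 8 and 10 with 1 array left out) and 0 fell, and the median was 0.32 beside -0.045 for all genes. Hspa5, the main ER chaperone, was at 12.98 and 13.0 on the Tgif1 KD arrays and 12.50 and 12.50 on the shControl arrays (0.49 ± 0.09, adjusted p = 6.52e-04). On the BirA control arrays Hspa5 was at 12.84 to 13.13, so the Tgif1 KD arrays lay within this range and the shControl arrays below it. Every change here was under 2-fold, and for Hspa5 the groups did not overlap, as was so for 69.2% of all genes. The called share of the list was 46.4%, beside 25.4% of all genes. The stress sensors Atf6 (0.70 ± 0.10) and Eif2ak3 (0.70 ± 0.14) and the factor Xbp1 (0.52 ± 0.12) rose, as did the lectin chaperones Calr (0.41) and Canx. For Atf6, Eif2ak3 and Xbp1 the BirA control arrays lay below both Tgif1 KD arrays. The third sensor gene, Ern1, was not called (-0.11). Another probe set gave a change of the opposite sign for Eif2ak3 (-0.02).

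The ATF4 response, which raises amino acid supply under stress, gave 25 measured genes of which 9 rose and 0 fell, with a median of 0.14. Atf5, a target and relative of Atf4, was at 9.62 and 9.41 on the Tgif1 KD arrays and 7.58 and 7.49 on the shControl arrays (1.98 ± 0.10, adjusted p = 7.32e-09), with a BirA control range of 7.54 to 7.61 that held or adjoined the shControl arrays. Atf4 itself (0.67 ± 0.13), the asparagine synthetase gene Asns (0.76 ± 0.17, 13.35 and 13.42 against 12.65 and 12.60) and the lipoprotein receptor gene Vldlr (0.91 ± 0.12) rose. Aminoacyl-tRNA synthetase genes numbered 21, of which 5 rose (1, 2, 3 and 1 with 1 array left out) and 2 fell (1, 1, 1 and 1 with 1 array left out), all by less than 2-fold. Amino acid transporters numbered 24, of which 3 rose and 3 fell (2, 2, 1 and 1 with 1 array left out). Slc1a1 and Slc1a3 (0.99 ± 0.12) were among the rises and Slc38a4 (-0.74 ± 0.09) among the falls. The called share was 36.0% of ATF4 response genes and 33.3% of synthetase genes, beside 25.4% of all genes. That of amino acid transporters was close to the share of all genes. Opposite in sign was another probe set of Atf4 (-0.19) and Vldlr (-0.21).

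Enzymes of sterol and fatty acid synthesis were mostly among the falls where called. Of 31 measured, 2 rose and 13 fell, with a median of -0.09 and a called share of 48.4%, beside 25.4% of all genes. Fads2, a fatty acid desaturase, was at 6.56 and 6.34 on the Tgif1 KD arrays and 8.19 and 8.24 on the shControl arrays (-1.76 ± 0.14, adjusted p = 5.40e-07). Scd1, another desaturase, was at 9.13 and 9.30 on the Tgif1 KD arrays and 10.31 and 10.36 on the shControl arrays (-1.12 ± 0.23). The groups were apart for both, and the other probe set of Fads2 gave -1.53. Of the sterol branch, Fdps (-0.92 ± 0.15), Sqle (-0.70 ± 0.12), Mvk (-0.49 ± 0.08) and Fdft1 (-0.48 ± 0.09) fell, and the fatty acid synthase gene Fasn fell too (-0.77 ± 0.11). For Fdps the other probe set gave -0.16. Pmvk, which acts between Mvk and Mvd, rose (0.95 ± 0.13, 9.90 and 9.86 against 8.93 and 8.93). Srebf1, a regulator of lipid synthesis, fell (-0.36 ± 0.10), while Srebf2, the regulator of the sterol branch, was not called at 0.26. Other genes of the branch, such as Cyp51 (0.00) and Lss (-0.03), were close to 0 and not called. Not called on fewer arrays were Srebf1 without Tgif1 KD replicate 1, Tgif1 KD replicate 2 or shControl replicate 2 (0.156), the highest adjusted p in brackets. A further probe set had the other sign for Mvk (0.18).

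**Figure D3:**
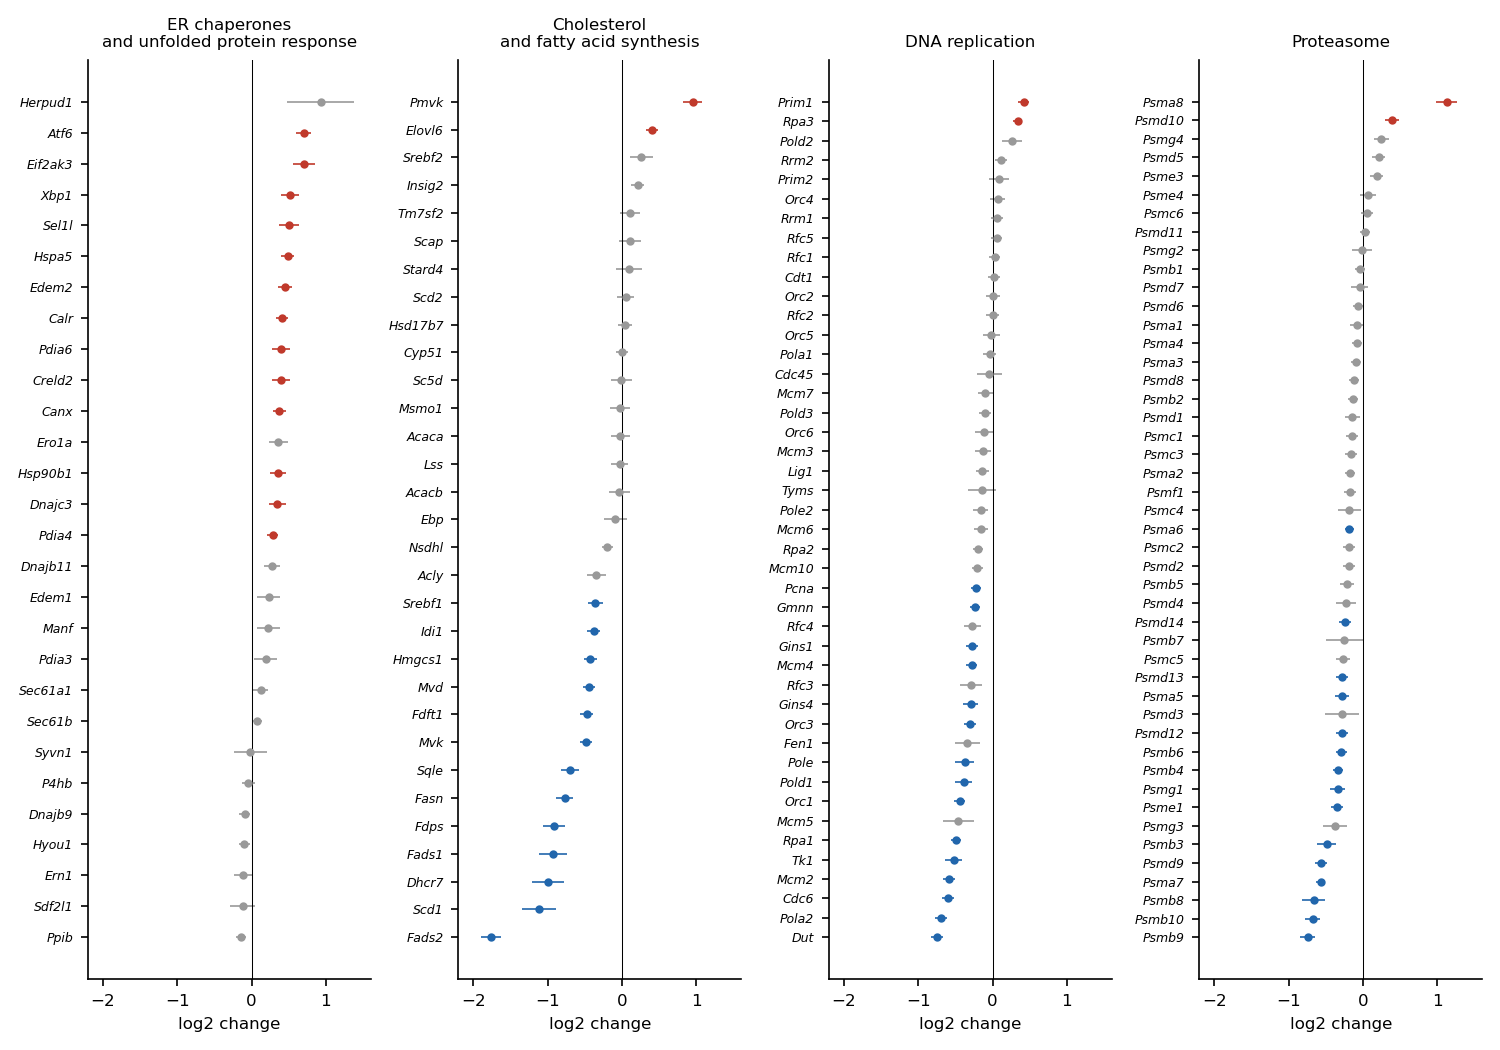
Change (log2, Tgif1 KD minus shControl) of each measured gene of 4 lists, with bars of 1 standard error, coloured red where called higher and blue where called lower by limma. ER chaperone genes lie to the right of 0 in the called part of the list, and the called genes of the other 3 lists lie mostly to the left, with Pmvk (0.95), Elovl6 (0.40), Prim1 (0.42), Rpa3 (0.34), Psma8 (1.13) and Psmd10 (0.39) as the exceptions.

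Housekeeping machines differed in how many of their genes were called. Of 45 cytosolic ribosomal protein genes 0 rose and 2 fell (2, 1, 2 and 2 with 1 array left out), a called share of 4.44% beside 25.4%. The median shControl level of these genes was 14.05, near the highest value of the arrays, 14.79. Rps25, far below that level, was at 9.01 and 9.06 on the Tgif1 KD arrays and 10.39 and 10.29 on the shControl arrays (-1.31 ± 0.15), and Rps27 changed by -0.34. Proteasome genes numbered 46, of which 2 rose (1, 2, 2 and 2 with 1 array left out) and 15 fell (8, 8, 9 and 5 with 1 array left out), with a median of -0.18. The called share of proteasome genes was 37.0%. The falls included all 3 catalytic subunits of the immunoproteasome, Psmb8 (-0.66 ± 0.16), Psmb9 (-0.74 ± 0.11) and Psmb10 (-0.68 ± 0.10), and the core subunit Psma7 (-0.57 ± 0.06). Psma8, the subunit of the testis proteasome, was at 9.07 and 9.09 on the Tgif1 KD arrays and 7.94 and 7.97 on the shControl arrays (1.13 ± 0.14), so the largest change of the list was opposite to its median. Respiratory chain and ATP synthase genes numbered 79, of which 7 rose (5, 3, 5 and 3 with 1 array left out) and 9 fell (2, 1, 3 and 1 with 1 array left out), a share of 20.3%. Calls that did not hold with 1 array fewer were those of Psmb8 without Tgif1 KD replicate 1 or shControl replicate 2 (0.0741) and Rps27 without Tgif1 KD replicate 2 (0.0702), the highest adjusted p in brackets.

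The oxidative stress response controlled by Nrf2 moved both ways: of 27 measured genes 9 rose (6, 4, 5 and 4 with 1 array left out) and 6 fell (3, 2, 3 and 2 with 1 array left out). Nfe2l2, which encodes Nrf2, rose (0.89 ± 0.09, 11.01 and 11.03 against 10.19 and 10.07), as did its targets Nqo1 (0.97 ± 0.14) and Srxn1 (0.91 ± 0.14), and Mgst1 fell (-0.91 ± 0.15). For Mgst1 the other probe set gave -0.13. Genes of glycolysis and of the response to low oxygen numbered 27, of which 7 rose and 2 fell (0, 1, 1 and 0 with 1 array left out). P4ha1 (1.36 ± 0.14, 8.53 and 8.39 against 6.95 and 7.26) and P4ha2 (1.06 ± 0.18), which hydroxylate collagen prolines, led the rises with the peptide hormone gene Adm (1.25 ± 0.20). Nnt, which makes NADPH in mitochondria, was at 9.40 and 9.45 on the Tgif1 KD arrays and 7.42 and 7.31 on the shControl arrays (2.06 ± 0.23), and the BirA control arrays lay between the groups at 8.34 to 8.60. Another probe set gave a change of the opposite sign for Srxn1 (-0.03). The called share was 55.6% of the oxidative stress list and 33.3% of the glycolysis and low oxygen list, beside 25.4% of all genes.

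Genes of epithelial junctions and of epithelial to mesenchymal change moved both ways, with a called share of 40.6% beside 25.4% of all genes. Of 32 genes of cadherins and epithelial to mesenchymal change, 5 rose (4, 3, 3 and 4 with 1 array left out) and 8 fell, and the median was -0.10. Esrp1, a splicing factor of epithelial cells, was at 5.90 and 5.74 on the Tgif1 KD arrays and 7.68 and 7.81 on the shControl arrays (-1.93 ± 0.15), and its relative Esrp2 fell by less (-0.52 ± 0.11). BirA control arrays were higher than both groups for Esrp1 (8.94 to 9.22). Cdh1, which encodes E-cadherin, was at 10.34 and 10.38 on the Tgif1 KD arrays and 11.48 and 11.46 on the shControl arrays (-1.11 ± 0.08). The claudin genes Cldn6 (-1.15 ± 0.21, 5.66 and 5.79 against 6.90 and 6.86) and Cldn7 (-0.91 ± 0.20) fell, while Cldn4 rose (1.18 ± 0.15, 10.15 and 10.12 against 8.91 and 9.0). Grhl2 (-0.53 ± 0.12) and Ovol1 (-0.52 ± 0.13), factors of epithelial identity, fell, and the mesenchymal filament gene Vim rose (0.70 ± 0.15) from a level that was high in both groups. Other members went the opposite way, with the mesenchymal cadherin gene Cdh2 lower (-0.66 ± 0.19, 4.63 and 4.34 against 5.18 and 5.11) and the tight junction gene Tjp1 higher (0.43 ± 0.08, 11.04 and 11.05 against 10.60 and 10.63). The threshold was missed by Cdh2 without Tgif1 KD replicate 2, shControl replicate 1 or shControl replicate 2 (0.148), Grhl2 without Tgif1 KD replicate 1 (0.0786) and Ovol1 without shControl replicate 2 (0.0797), the highest adjusted p in brackets.

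Actomyosin and focal adhesion genes numbered 36, of which 1 rose (0, 0, 0 and 0 with 1 array left out) and 6 fell, with Fhl1 (-1.24 ± 0.08) and Cnn2 (-0.98 ± 0.15) after Pdlim7. Simple keratin and desmosome genes were rarely called, 5.56% of 18: 0 rose and 1 fell (0, 1, 0 and 0 with 1 array left out), the desmosomal plakophilin gene Pkp3 (-0.31 ± 0.09). Basement membrane genes numbered 28, of which 5 rose and 1 fell (1, 1, 2 and 1 with 1 array left out). The called share was 21.4% of basement membrane genes, 19.4% of actomyosin and focal adhesion genes and 33.3% of the galectin genes below, beside 25.4% of all genes. The collagen IV chains Col4a1 (8.80 and 8.73 against 7.46 and 7.33) and Col4a2 (6.53 and 6.42 against 5.34 and 5.35) rose by 1.37 ± 0.16 and 1.13 ± 0.23. The laminin chain gene Lama3 fell (-1.003 ± 0.23). Of the integrins, Itgav (1.37 ± 0.11) and Itga6 (0.67 ± 0.08) rose, and the fibrillar collagen gene Col11a1 rose by 1.54 ± 0.17. Of 9 galectin genes 1 rose, Lgals3 (1.48 ± 0.11), and 2 fell (0, 1, 1 and 0 with 1 array left out). With 1 array left out, calls were lost for Pkp3 without any 1 of the 4 arrays (0.116), the highest adjusted p in brackets. Opposite in sign was another probe set of Pkp3 (0.04).

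Of the signalling pathways in which Tgif1 is known to act, TGF-beta and Nodal ligands and receptors numbered 21, of which 5 rose (2, 4, 2 and 2 with 1 array left out) and 1 fell (0, 1, 1 and 1 with 1 array left out), a called share of 28.6% beside 25.4% for all genes. Nodal, the ligand that patterns the early embryo, was at 10.46 and 10.41 on the Tgif1 KD arrays and 9.76 and 9.85 on the shControl arrays (0.63 ± 0.07), and its coreceptor Tdgf1 at 13.11 and 13.26 against 12.59 and 12.64 (0.57 ± 0.11). Nodal on BirA control arrays was at 10.29 to 10.37, nearer to the Tgif1 KD level. Lefty1, a secreted Nodal inhibitor and target, was at 7.78 and 7.48 on the Tgif1 KD arrays and 8.45 and 8.88 on the shControl arrays (-1.04 ± 0.19), while BirA control arrays were higher than both groups (10.26 to 10.61). Foxh1, a Smad partner, rose (0.63 ± 0.12), as did Tgfbi, a TGF-beta target (1.23 ± 0.26). Of 22 BMP and Id genes 2 rose and 1 fell, the receptor gene Acvr1 (1.11 ± 0.10, 8.09 and 8.0 against 7.02 and 6.85) and Id4 (1.91 ± 0.17) on one side and Id3 (8.08 and 7.67 against 8.84 and 8.91) on the other. Id genes encode inhibitors of basic helix-loop-helix factors. The called share of BMP and Id genes was 13.6%, beside 25.4% of all genes. A further probe set had the other sign for Acvr1 (-0.09).

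Retinoic acid pathway genes numbered 20, of which 2 rose and 4 fell. Tgm2, a transglutaminase induced by retinoic acid, was at 10.14 and 10.28 on the Tgif1 KD arrays and 8.18 and 8.21 on the shControl arrays (2.02 ± 0.26), with other probe sets from -0.14 to 2.17. Stra8, also induced by retinoic acid and needed for meiosis, was at 6.36 and 6.62 on the Tgif1 KD arrays and 8.07 and 8.14 on the shControl arrays (-1.61 ± 0.17), and Crabp1, which binds retinoic acid, at 8.51 and 8.61 against 9.77 and 9.83 (-1.24 ± 0.24). For Stra8 and Crabp1 the BirA control arrays lay at 5.84 to 6.21 and 8.26 to 8.68, nearer to the Tgif1 KD arrays, so the shControl arrays were the ones that stood apart.

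Wnt pathway genes numbered 29, of which 3 rose and 6 fell (2, 4, 3 and 4 with 1 array left out). The ligand gene Wnt5a was at 5.48 and 5.17 against 4.03 and 3.84 (1.39 ± 0.23), and Apc, of the complex that degrades beta-catenin, rose (0.50 ± 0.08). Notum, a secreted antagonist (-1.21 ± 0.18), and Tcf7l1, a repressor of Wnt target genes in ES cells (-0.89 ± 0.20, 8.03 and 7.91 against 8.86 and 8.85), fell. Of 25 FGF and ERK genes, 4 rose (2, 2, 2 and 2 with 1 array left out) and 5 fell (3, 4, 4 and 3 with 1 array left out). The immediate early gene Fos was at 9.21 and 9.31 on the Tgif1 KD arrays and 7.36 and 7.30 on the shControl arrays (1.93 ± 0.23), Fgf4 rose (0.69 ± 0.08) and the receptor gene Fgfr3 fell (-0.78 ± 0.15). Other probe sets of Fgf4 ran from 0.08 to 0.71, and that of Fgfr3 gave -0.03. Of 17 LIF pathway genes 2 rose (2, 1, 2 and 1 with 1 array left out) and 2 fell (2, 1, 1 and 1 with 1 array left out), with Jak2 (0.73 ± 0.13) among the rises and Gbx2 (-0.84 ± 0.08) among the falls. The called share was 31.0% of Wnt pathway genes, 36.0% of FGF and ERK genes and 23.5% of LIF pathway genes, beside 25.4% of all genes. Pdgfc, a growth factor gene, was at 10.61 and 10.55 on the Tgif1 KD arrays and 8.60 and 8.51 on the shControl arrays (2.03 ± 0.07, adjusted p = 9.57e-11). Its BirA control level of 10.33 to 10.42 was close to that of the Tgif1 KD arrays.

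Core pluripotency factors were not called. Pou5f1 changed by 0.17 ± 0.07 (adjusted p = 0.103), Sox2 by 0.20 ± 0.11 (12.74 and 12.83 against 12.60 and 12.57), Nanog by 0.45 ± 0.25 (12.86 and 12.89 against 12.43 and 12.42), Esrrb by 0.55 ± 0.31 (11.19 and 11.13 against 10.64 and 10.59) and Klf4 and Zfp42 by 0.09 and -0.04. The levels of each of these factors did not overlap between the groups, as was so for 69.2% of all genes. The standard errors of Nanog and Esrrb, which pool the spread of all 5 groups, were large beside the gap between replicates here. Core and naive genes numbered 19, of which 3 rose and 1 fell, with a median of 0.17. Their called share was 21.1%, and that of formative and primed genes 13.3%, beside 25.4% of all genes. The rises were Pecam1, Fbxo15 (0.95 ± 0.14) and Tcl1 (0.73 ± 0.21). The fall was of Dppa3, a maternal factor also expressed in naive cells, at 6.62 and 6.53 on the Tgif1 KD arrays and 7.83 and 7.88 on the shControl arrays (-1.28 ± 0.26). Among 15 genes of formative and primed cells 0 rose and 2 fell (3, 1, 1 and 1 with 1 array left out), with a median of -0.38. These were the DNA methyltransferase gene Dnmt3b (-0.61 ± 0.09, 10.41 and 10.44 against 11.07 and 11.02) and Cdh2 (-0.66 ± 0.19), while Fgf5 was at 4.05 and 4.05 against 4.04 and 3.82. Counts in both lists were higher when the 4 arrays alone set the spread, with 8 core and naive genes higher and 3 lower and 1 formative and primed gene higher and 7 lower, and 4 of the 8 ES cell markers were then higher. Not called on fewer arrays were Cdh2 without Tgif1 KD replicate 2, shControl replicate 1 or shControl replicate 2 (0.148) and Tcl1 without any 1 of the 4 arrays (0.0962), the highest adjusted p in brackets.

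Lineage genes gave isolated changes in several directions. Of 25 primitive endoderm genes 7 rose and 1 fell (0, 0, 0 and 0 with 1 array left out), with Gata6, a factor of that lineage, at 5.47 and 5.54 on the Tgif1 KD arrays and 4.94 and 4.88 on the shControl arrays (0.59 ± 0.12), still low on all 4 arrays, and the proteoglycan gene Srgn at 6.75 and 6.36 against 4.94 and 4.84 (1.66 ± 0.29). The other probe set of Gata6 gave 0.18. Trophectoderm genes gave 2 higher and 1 lower of 21, a called share of 14.3% beside 25.4% of all genes. Tfap2a changed by 0.82 ± 0.16 and Tfap2c by -1.02 ± 0.18, and Cdx2 was not called (4.87 and 4.81 against 5.07 and 5.11). Mesoderm genes numbered 24, of which 2 rose and 2 fell (0, 2, 1 and 1 with 1 array left out), a called share of 16.7%, with Eomes (0.53 ± 0.09) among the rises and Fgf8 (-0.46 ± 0.14) and Evx1 (-0.43 ± 0.11) the falls. Of 28 neural genes, 6 rose (3, 4, 3 and 4 with 1 array left out) and 3 fell. Neurod1, a neurogenic factor, was at 9.47 and 9.50 on the Tgif1 KD arrays and 6.84 and 6.81 on the shControl arrays (2.66 ± 0.40), and the neurofilament genes Nefm and Nefl changed by 2.24 ± 0.62 and 1.45 ± 0.17, whereas the neuronal tubulin gene Tubb3 fell (-1.17 ± 0.24). For Neurod1 (7.86 to 8.60) and Nefm (5.60 to 6.08) the BirA control arrays lay between the groups. For Nefl (9.23 to 9.54) they were at the Tgif1 KD level, and for Tubb3 (7.89 to 8.15) nearer to shControl. The called share was 32.0% of primitive endoderm genes and 32.1% of neural genes, beside 25.4% of all genes. Calls that did not hold with 1 array fewer were those of Evx1 without Tgif1 KD replicate 1 or shControl replicate 1 (0.108), Fgf8 without Tgif1 KD replicate 1 or shControl replicate 2 (0.242) and Nefm without any 1 of the 4 arrays (0.0792), the highest adjusted p in brackets. Another probe set gave a change of the opposite sign for Tfap2a (-0.12).

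Germline genes numbered 23, of which 3 rose (1, 2, 3 and 1 with 1 array left out) and 4 fell. Piwil2, of the piRNA pathway, rose (1.08 ± 0.17, 8.06 and 8.02 against 7.10 and 6.82), and Tex19.1 (-0.95 ± 0.24) and the meiotic cohesin gene Rec8 (-0.65 ± 0.12) fell. For Tex19.1 (8.90 to 9.51) and Rec8 (6.17 to 6.43) the BirA control arrays lay nearer to the Tgif1 KD arrays, as for the other falls, Stra8 and Tex15. For Piwil2 (6.14 to 6.60) they lay below both groups. Imprinted genes numbered 39, of which 9 rose and 4 fell (2, 3, 3 and 2 with 1 array left out). Sgce was at 7.61 and 7.73 on the Tgif1 KD arrays and 5.52 and 5.72 on the shControl arrays (2.05 ± 0.21), Peg12 rose by 1.33 ± 0.20, Grb10 by 0.85 ± 0.10 and Peg3 by 0.98 ± 0.21 (8.91 and 8.95 against 8.01 and 7.90), and Mest fell (-0.51 ± 0.09). Those with expression from the paternal and from the maternal copy were both among the rises. Peg3 on BirA control arrays (8.81 to 9.18) was at the Tgif1 KD level. The called share was 30.4% of germline genes and 33.3% of imprinted genes, beside 25.4% of all genes. Opposite in sign was another probe set of Grb10 (-0.22).

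Chromatin genes also moved both ways. Of 28 Polycomb genes 7 rose and 7 fell (4, 1, 1 and 2 with 1 array left out), with a median of 0.11. Polycomb complexes silence developmental genes. Bmi1, a ring finger subunit, was at 8.77 and 8.60 on the Tgif1 KD arrays and 6.44 and 6.55 on the shControl arrays (2.19 ± 0.14), and its other probe set gave 2.63. Its relative Pcgf2, in contrast, changed by -0.42 ± 0.13. Aebp2 (0.82 ± 0.11) and Yaf2 (0.66 ± 0.09) rose and Cbx2 fell (-0.70 ± 0.14), while the enzyme gene Ezh2 changed by -0.24 ± 0.08. The other probe sets of Aebp2 and Cbx2 gave 0.14 and -0.05. Histone methyltransferases and demethylases numbered 27, of which 6 rose (3, 5, 4 and 4 with 1 array left out) and 4 fell (3, 1, 1 and 1 with 1 array left out), with Kmt2e at 0.59 ± 0.11. DNA methylation genes numbered 17, of which 1 rose (0, 0, 0 and 1 with 1 array left out) and 3 fell (1, 1, 1 and 1 with 1 array left out). These were Mbd2 (0.37 ± 0.12), which binds methylated DNA, on one side and Dnmt3b, Mbd1 (-0.27 ± 0.09) and Gadd45a (-0.45 ± 0.16) on the other. The called share was 50.0% of Polycomb genes, 37.0% of histone methyltransferases and demethylases and 23.5% of DNA methylation genes, beside 25.4% of all genes. The threshold was missed by Ezh2 without any 1 of the 4 arrays (0.238), Gadd45a without any 1 of the 4 arrays (0.203), Mbd1 without any 1 of the 4 arrays (0.192), Mbd2 without any 1 of the 4 arrays (0.182) and Pcgf2 without Tgif1 KD replicate 2, shControl replicate 1 or shControl replicate 2 (0.214), the highest adjusted p in brackets.

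The large family of Zfp zinc finger genes, many of which encode KRAB repressors, numbered 173, of which 16 rose (10, 14, 13 and 12 with 1 array left out) and 31 fell (26, 18, 22 and 19 with 1 array left out), with a median of -0.07. The called share was 27.2% for these genes and 22.1% for the solute carriers below, beside 25.4% of all genes. Zfp654 (1.39 ± 0.12) and Zfp948 (1.18 ± 0.15) rose and Zfp386 (-1.38 ± 0.16) and Zfp148 (-0.91 ± 0.13) fell. Solute carriers numbered 262, of which 33 rose and 25 fell (18, 18, 16 and 15 with 1 array left out), with the monocarboxylate transporter gene Slc16a6 (1.36 ± 0.12) and the carnitine carrier gene Slc25a20 (1.22 ± 0.11) among the rises. Interferon and antigen presentation genes numbered 26, of which 2 rose (0, 0, 0 and 0 with 1 array left out) and 7 fell (4, 5, 5 and 5 with 1 array left out), and the median was -0.19. Their called share was 34.6%, beside 25.4% of all genes. Oas1a (-1.02 ± 0.19, 8.38 and 8.45 against 9.43 and 9.44) and Irf1 (-0.93 ± 0.09) fell. Irgm1 (-1.29 ± 0.19), an interferon-induced GTPase gene, fell too. It is not itself a guanylate-binding protein gene but stood in a separate list named for them. The other fall of that list was of Gbp7, not called without Tgif1 KD replicate 2 or shControl replicate 1. Of 9 measured in that list 0 rose and 2 fell, fewer without Tgif1 KD replicate 2, a called share of 22.2%. Its median was -0.55, and its median shControl level was 4.29. Olfactory receptor genes, which ES cells hardly express, numbered 31, of which 0 rose and 2 fell (1, 0, 3 and 0 with 1 array left out), a called share of 6.45%.

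**Figure D4:**
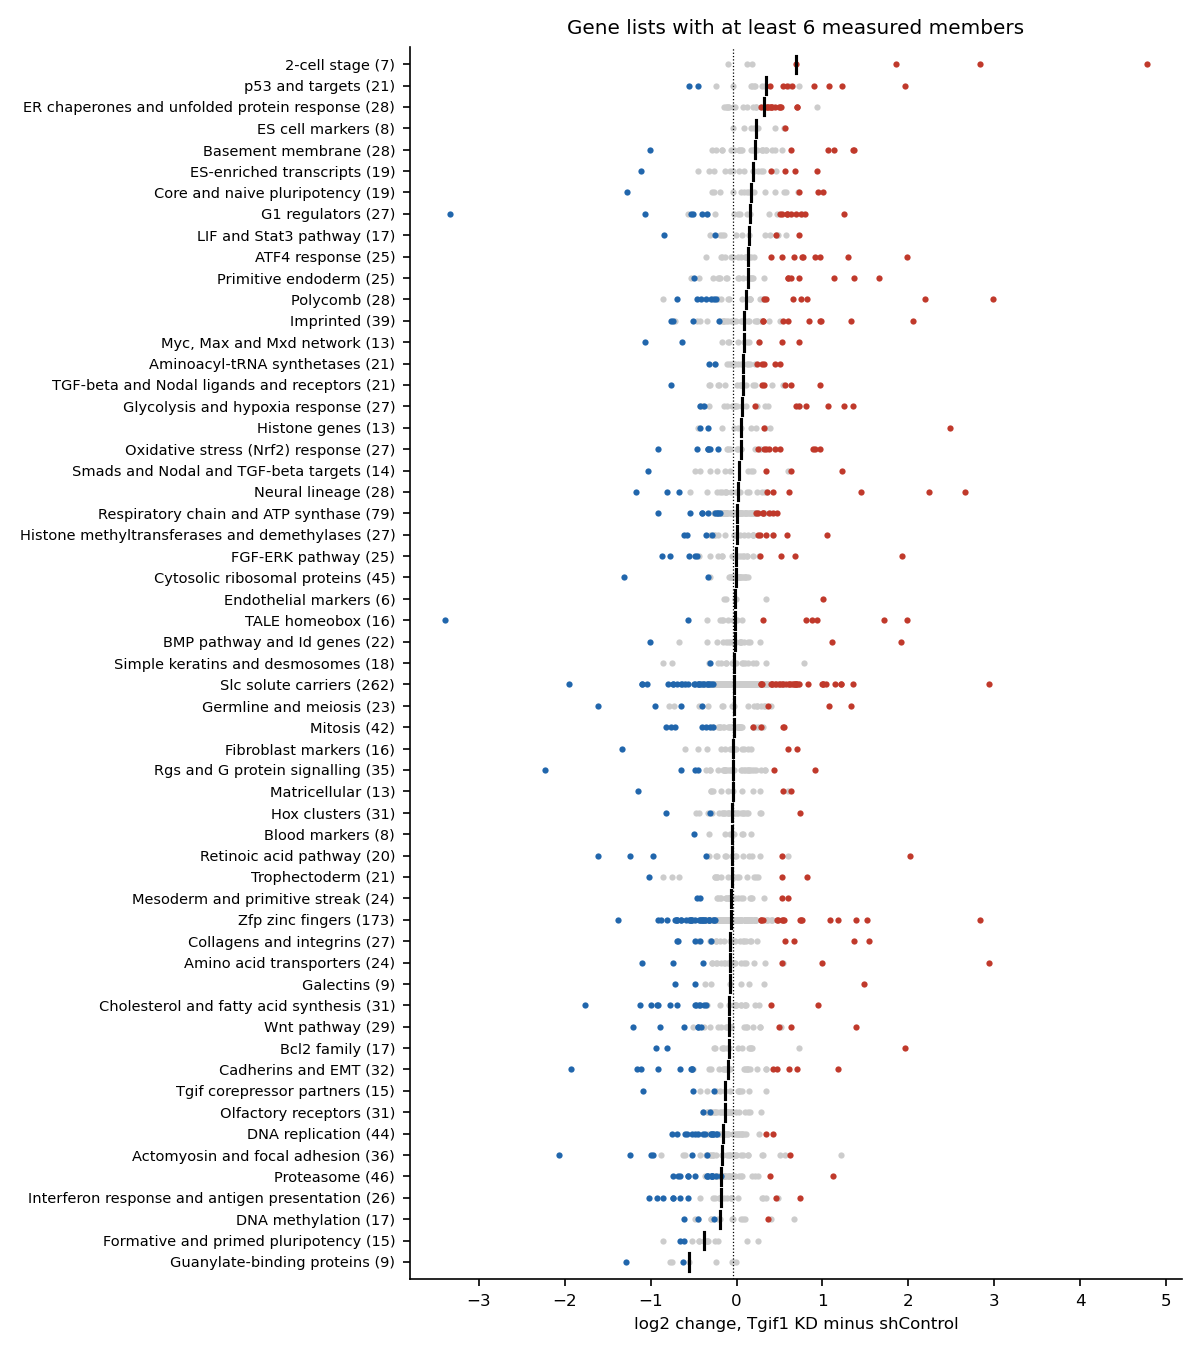
Changes (log2, Tgif1 KD minus shControl) of the measured members of each gene list with at least 6 members, ordered by the list median (black bar); the number measured is in brackets, red and blue points were called higher and lower, and the dotted line is the median of all genes, -0.045. Most lists hold called genes on both sides, and the medians run from -0.55 to 0.69.

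The BirA control arrays, of the same cell line but of the other experiment, gave a second reference. Of the 268 genes at least 2-fold higher in Tgif1 KD, the BirA mean was nearer to shControl for 252 and nearer to Tgif1 KD for 16. Of the 127 at least 2-fold lower it was nearer to shControl for 102 and to Tgif1 KD for 25. For 247 of the rises (92.2%) both Tgif1 KD arrays lay above all 14 other arrays, and for 113 of the falls (89.0%) below them, against 15.9% and 16.3% of all genes. The genes were chosen by their gap to shControl, and the shControl arrays are among the 14. High shares therefore follow in part from that choice. For called genes under 2-fold the shares were 75.4% of 1284 rises and 69.1% of 1467 falls. There the BirA mean was nearer to Tgif1 KD for 199 and 456. Among the falls of at least 2-fold, Stra8, Aurkc, Cbln1 and Thy1 were exceptions, where shControl was high beside both others. Aurkc, an Aurora kinase of germ cells, was at 6.16 and 6.32 against 8.13 and 8.18 with a BirA control range of 6.54 to 6.89, Cbln1 at 6.34 and 6.26 against 7.77 and 7.80 with 6.29 to 6.51, and Thy1 at 6.65 and 6.64 against 8.02 and 7.93 with 5.85 to 6.20. The reference differs from shControl in construct and experiment, and the part of either in these genes was not tested.

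**Figure D5:**
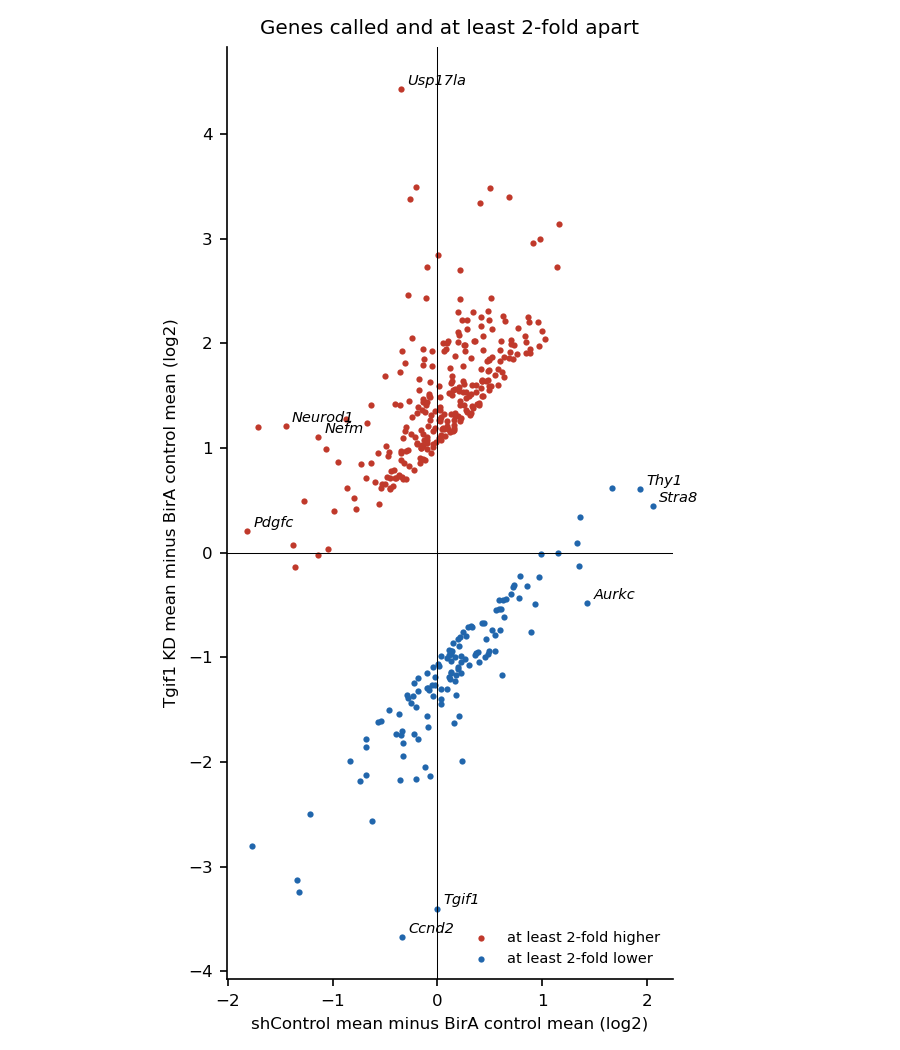
Genes called and at least 2-fold higher (red) or lower (blue) in Tgif1 KD, by the shControl mean (horizontal) and the Tgif1 KD mean (vertical), each minus the mean of the 4 BirA control arrays (log2). Points near the vertical axis have a shControl level like BirA control, as Tgif1 has, and points near the horizontal axis, such as Pdgfc and Stra8, have a Tgif1 KD level like it.

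Other probe sets of the same genes gave a check within the arrays. Of the 2300 further probe sets of called genes, 1954 (85.0%) had a change of the same sign as the representative one, and 979 were called in that direction against 30 called in the opposite one. For genes changed at least 2-fold the counts were 223 of 255 (87.5%), 173 and 1. Probe sets of 1 gene share the RNA and the array, so they are no further replicates.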

How the data were processed

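RNA was hybridized to Affymetrix Mouse 430A 2.0 arrays. The deposited table holds log2 intensities, normalized by the authors with RMA; the submitters' processing notes name RMA and limma without versions, and whether all arrays were normalized together is not stated in the labels. Values lay between 2.19 and 14.79. Control probe sets (64) and those with several symbols (691) or none (1555) were left out. Each gene took the probe set whose mean over 16 arrays was highest, and 4956 genes had several. Symbols follow a 2016 annotation, and 12369 genes matched a RefSeq gene number.

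With limma (3.58.1, R 4.3.3) a mean for each of 5 groups was estimated, and Tgif1 KD minus shControl was tested by moderated statistics with Benjamini-Hochberg adjustment over 12393 genes (threshold 0.05). The steps were tested on simulated data. The number of arrays limits the precision, and scan dates and detection calls were not used. Genes and lists were chosen with earlier results of these data known. Named are Tgif1, Tgif2, the 25 top rises and falls among called genes with separate groups, up to 5 called members per direction of each list, and fixed pluripotency and lineage genes. Pramel6, Timm8a2, Pdgfc, Rbl1, Cdkn2d, Cdkn2a, Cdkn1a, Calr, Atf4, Asns, Sqle, Fasn, Fdft1, Mvk, Srebf1, Grhl2, Esrp2, Ovol1, Ezh2 and most genes given as not called were added after their values were seen. Promoter windows are RefSeq's, the first of a gene unless stated.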

Additional observations from a re-analysis of the deposited data

Results flagged for a closer look

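For 29 genes and for the 5′ minus 3′ difference of 2 controls, the 4 BirA control arrays were examined for a value far from the other 3. For Pttg1 one array was at 11.77 and the others at 11.81 to 11.82. For Dnmt3b one was at 11.93 and the others at 11.84 to 11.85. The groups of the knockdown hold 2 arrays each and were too small for this rule. Chance flags about 1 in 20 groups of this kind. Neither gene's change between Tgif1 KD and shControl uses these arrays except through the pooled spread.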

How the results depend on the processing

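The number of called genes, 3146, ranged from 2999 to 3253 with 12 arrays, quantile normalization, the mean of a gene's probe sets, trended and robust variance, the replicate block, and without the dim genes (those with the lowest means, 8262 of 12393 kept), and it was 4289 when the 4 arrays alone set the spread. Every probe set as a feature gave 4694 of 20380, 2395 of them higher, because more features were tested. With 1 array left out, where the lone array is assumed to vary like the other groups, the count ran from 2012 to 2161, with 1030 to 1123 higher and 959 to 1091 lower; fewer arrays were fitted. The replicate numbers did not pair the arrays (correlation of deviations -0.004), and the replicate block gave 2999 calls, 2972 of them shared. The log2 change of Tgif1 ran from -3.57 to -3.22 and stayed past the threshold under every alternative tried for it. Of 349 named genes that were called, 226 kept their call in every setting that measured them. The log2 change of Uqcrq turned, from 0.30 to -0.0745, with the mean of its probe sets, which weights its dimmer probe sets more. Leaving out dim genes removed 52 of the named genes, among them the 2-cell genes near background on most arrays. Without the dim genes 0 genes of the 2-cell list and 3 of primitive endoderm were called higher, because fewer were tested. With the 4 arrays alone, counts of list members called higher grew for, among others, basement membrane (5 to 11), respiratory chain (7 to 15), LIF pathway (2 to 8) and actomyosin genes (1 to 5, and 6 to 11 lower). Signal close to background limits the size of such changes.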
